A study of Mus musculus with 49 samples.

Results

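Myl10, Gldc, Thy1, Prkch, Sema4a and Car2 are genes whose signal was high in pro-B cells grown in interleukin 7 (IL-7), and their levels were followed here through 14 groups of mouse bone marrow B lineage cells. The 6 genes, of 7417 named on both array versions used, were listed by name after earlier results of these data were known. Each is measured by the 1 probe set that matches it alone, with the same identifier on both versions: 101195_at for Myl10, 95603_at for Gldc, 99057_at for Thy1, 99916_at for Prkch, 94063_at for Sema4a and 92642_at for Car2. They were chosen by measured signals, as genes high in cultured pro-B cells. Which comparison chose them is not stated, and B6-M- against Ctrl-Mhi was treated as that one, so it is described and not tested. Whether signals in Cre-Mlo, GFPpos or FxE HA cells also played a part in the choice is not stated. The question put to the remaining groups was which of the genes come back when surface IgM is lost (Cre-Mlo) or when its signaling is blocked with herbimycin A (GFPpos and FxE HA).

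The study asked what happens to immature B cells that lose basal signaling through their IgM receptor. Mice were generally 4 to 8 weeks old. B6-M- cells were B220+ IgMneg cells sorted from IL-7 cultures of C57BL/6 marrow (n = 3 arrays). Ctrl-Mhi, Cre-Mhi and Cre-Mlo cells (n = 4 each) all carried the B1-8 heavy chain (B1-8h in the labels, a floxed allele named B1-8f in the methods) and the 3-83 kappa light chain, grew for 5 d in IL-7 and then spent 2 d without IL-7 and with interferon alpha and beta. The Cre groups also carried Mx-Cre, a recombinase behind an interferon-responsive promoter, and were sorted for high (Cre-Mhi) or low (Cre-Mlo) surface IgM, whereas Ctrl-Mhi cells lacked Cre and were sorted for high IgM. GFPneg and GFPpos cells (n = 3 each) came from HEL-Ig/Rag2-GFP double transgenic marrow, in which the B cells carry a receptor for hen egg lysozyme (HEL) and GFP reports Rag2 control elements. After IL-7 culture they spent 1 d without IL-7, in medium (GFPneg, sorted IgM+ GFPneg) or in herbimycin A (GFPpos, sorted IgM+ GFP+), so the drug and the GFP sort cannot be told apart. FxE Ctrl (n = 4) and FxE HA (n = 6) cells were immature B cells (B220+IgM+IgDneg) sorted from mice with a B cell-restricted Bcl-2 transgene and kept 1 to 2 d in medium or in herbimycin A, without IL-7. FxD (B220+CD43negIgMneg pre-B cells) and FxE (immature B cells with the sort just given) were taken fresh from Balb/c marrow (n = 3 each), and their RNA was amplified before labelling. U74A arrays, n = 3 a group, carried HEL-Mhi cells (IL-7-expanded marrow of HEL-Ig mice, IgM high and IgDneg-low), Ctrl 48 h and HEL 48 h cells (HEL-Ig/Rag2-GFP marrow, 5 d in 16 ng/mL IL-7, then 48 h without IL-7 and without or with 1 µg/mL HEL, sorted IgMa high and GFPneg or GFP+) and HEL-Mlo cells (HEL-Ig, IgMa low, IgDneg).

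Pro-B cells rearrange the heavy chain locus, depend on IL-7 and carry no IgM. The cytokine acts through the JAK and STAT5 pathway, and its withdrawal lets cells stop dividing and move on to light chain rearrangement. Herbimycin A is a benzoquinone ansamycin that blocks tyrosine kinases and also binds Hsp90. Myl10 encodes the precursor lymphocyte-specific regulatory light chain of myosin. Prkch encodes protein kinase C eta, a diacylglycerol-responsive kinase. Thy1 is the GPI-anchored surface protein CD90, best known from T cells and stroma. Sema4a is a transmembrane semaphorin of class 4, a family of ligands for plexins and other receptors. Gldc is the decarboxylase of the mitochondrial glycine cleavage system, which feeds one-carbon metabolism, and Car2 is a cytosolic carbonic anhydrase abundant in red cell precursors and osteoclasts.

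RefSeq promoter windows (build GRCm38.p6, 250 bases before to 50 after an annotated start) were found for 3 of the 6 genes, with 3 windows for Myl10, 1 for Gldc and 4 for Sema4a. The windows of Myl10 and Gldc are shown because these genes stood furthest apart between B6-M- and Ctrl-Mhi cells. Of the 3 Myl10 windows, the one shown holds the most matches to the motifs marked. The Myl10 window is chr5:136693426-136693725 on the + strand and that of Gldc is chr19:30175392-30175691 on the - strand, both written 5′ to 3′ along the gene. Capitals mark matches to CCCNNGGG, the core letters of the motif bound by EBF1, and to GGGCGG, the GC box, on either strand.
Myl10: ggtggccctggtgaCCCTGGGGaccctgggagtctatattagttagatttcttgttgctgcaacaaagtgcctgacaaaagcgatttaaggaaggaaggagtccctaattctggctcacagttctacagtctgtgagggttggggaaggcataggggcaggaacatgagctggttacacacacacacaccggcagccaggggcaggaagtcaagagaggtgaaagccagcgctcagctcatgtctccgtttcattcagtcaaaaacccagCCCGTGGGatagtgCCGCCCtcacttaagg
Gldc: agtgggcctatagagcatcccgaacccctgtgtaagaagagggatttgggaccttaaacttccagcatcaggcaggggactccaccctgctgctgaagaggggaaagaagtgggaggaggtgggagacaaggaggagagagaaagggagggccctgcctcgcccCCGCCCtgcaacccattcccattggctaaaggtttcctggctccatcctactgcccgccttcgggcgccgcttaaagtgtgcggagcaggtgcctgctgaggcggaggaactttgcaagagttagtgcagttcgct
The Myl10 window holds 2 matches to CCCNNGGG and 1 to GGGCGG, and the Gldc window 1 to GGGCGG. Over all 32851 windows in the table, 13.7% hold CCCNNGGG and 35.7% hold GGGCGG. A second Myl10 window and 1 of the Sema4a windows hold CCCNNGGG once each, and the other 3 Sema4a windows hold GGGCGG. The third Myl10 window holds none of the motifs searched. Neither TTCNNNGAA, the letters of a STAT site (8.30% of all windows), nor CAGCTG (16.3%) occurs in any of the 8 windows, and CAGGTG (20.2%) occurs once, in that of Gldc. Of 12 motifs searched on both strands, the spaced pair GAANNTTC (7.86%) and its mirror TTCNNGAA (8.52%), the TATA box TATAAA (13.6%), the forkhead letters TGTTTAC (3.65%) and the E box CACGTG (7.15%) had no match in these windows. The letters AACAAAG (5.85%) occurred in the Myl10 window shown, overlapping a match to TTTGTT (20.2%), which a second Myl10 window also holds. A match is a string of letters and not a binding site.

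Values are hybridization signals that the authors scaled to 1500 units, except that no target is stated for HEL 48 h and Ctrl 48 h arrays and no scaling for HEL-Mlo arrays. Median signals of the 37 U74Av2 arrays ran from 345.9 to 544, and those of FxE HA arrays alone from 345.9 to 506.3. Results after median centring are given below. HEL-Mlo arrays had medians of 21.6 to 26.2 and were given only as ranks. On the Ctrl 48 h and HEL 48 h arrays, 4 probe sets for yeast genes read from 12.6 to 253, which gives a sense of how high a signal without a target can be. A fold over signals in that range is one of measured signals and may understate the difference in RNA. All 8 measured B lineage markers had mean signals of at least 500 in each U74Av2 group. Among 11 erythroid markers the summed signal was 58592 to 163588 in FxD and FxE arrays and at most 12433 in the other U74Av2 groups, and 16 myeloid markers summed to at least 32881 in FxD, FxE, FxE Ctrl and FxE HA arrays against at most 8445 in the cultured groups on that array. Their part in the results below was not tested, beyond the values given there. In sorted bulk samples, fewer cells of a type and less RNA per cell cannot be told apart.

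All 6 genes were higher in the 3 B6-M- arrays than in the 4 Ctrl-Mhi arrays. Myl10 read 7461, 10205 and 14721 in B6-M- cells against 165, 64.2, 96.8 and 64.8 in Ctrl-Mhi cells, a 115-fold difference in geometric means and the third largest rise among the 9977 probe sets. Gldc read 3302, 5789 and 3517 against 46.3, 101, 101 and 90.2 (50.3-fold). For Prkch the signals were 1149, 1476 and 1457 against 50.3 to 66.6 (24.2-fold). Sema4a gave 4165, 4882 and 5259 against 151.5 to 349.6 (20.6-fold), Thy1 1246, 1339 and 2398 against 57 to 236 (11.6-fold), and Car2 5544, 6882 and 7992 against 1059 to 1617 (5.25-fold). The groups did not overlap for any of the genes. Of all probe sets, 13.6% were higher without overlap in this contrast, from which nothing is read since it was treated as the one that chose the genes. The 2 groups differ in mouse line, receptor, IL-7 and interferon at once, and these cannot be told apart.

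**Figure D1:**
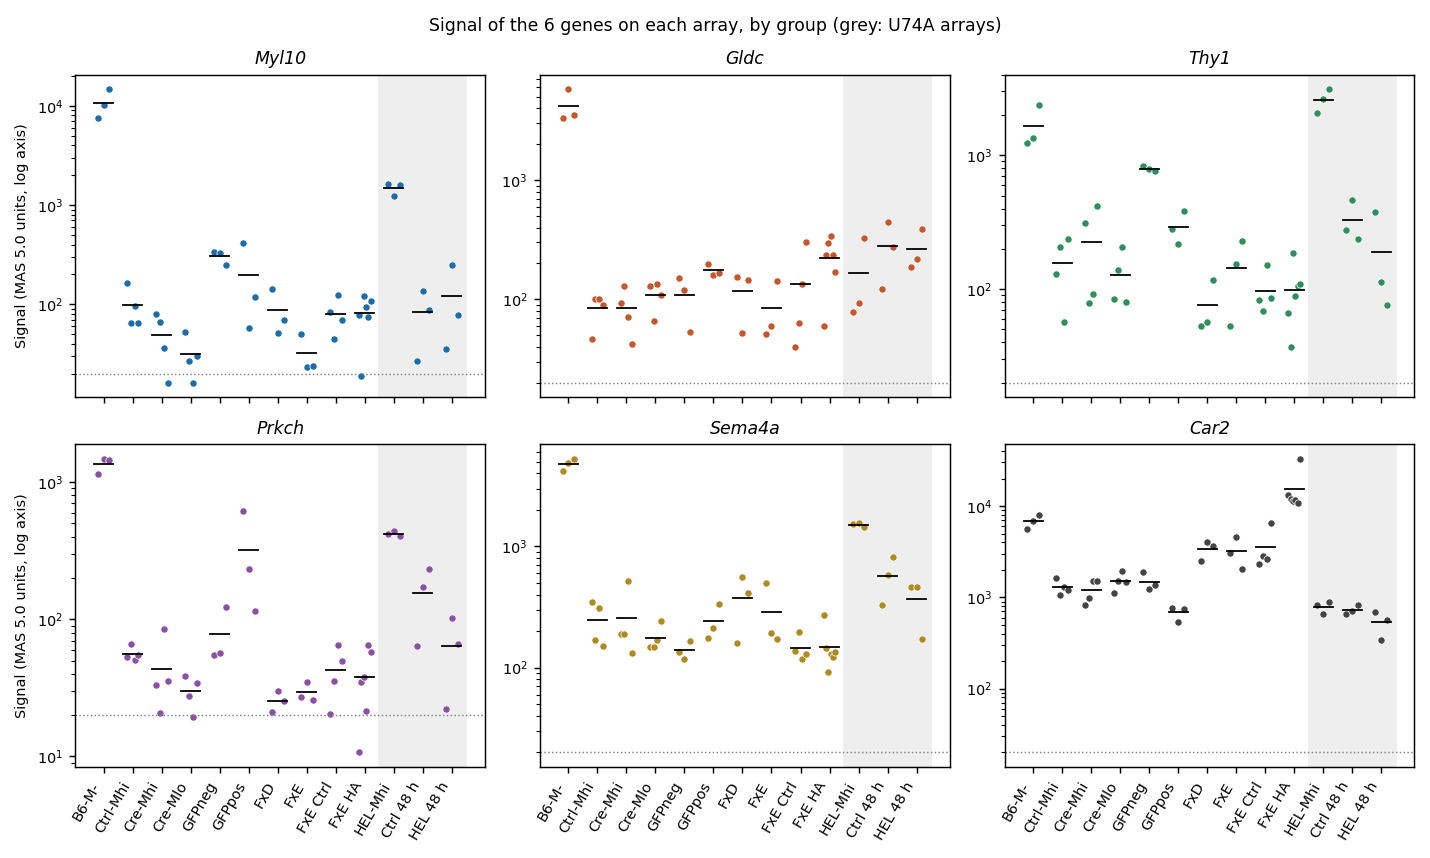
Signal of each gene on every array (points, log axis, MAS 5.0 units) by group, with the arithmetic mean of the group as a bar and the floor of 20 used for log values as a dotted line; grey marks U74A arrays, scaled in a separate table. B6-M- arrays lie above all 34 other U74Av2 arrays for Myl10, Gldc, Thy1, Prkch and Sema4a, while for Car2 the 6 FxE HA arrays lie higher, at 10897 to 32747. The genes were chosen as high in cultured pro-B cells.

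Against every other U74Av2 array, 5 of the genes stayed apart. The B6-M- level was treated as the basis of the choice, and the share of all probe sets so placed was not counted. The separation is therefore given as a description. The lowest B6-M- signal exceeded the highest of the 34 other arrays by 18.0 times for Myl10, 9.68 times for Gldc, 7.49 times for Sema4a, 1.87 times for Prkch and 1.503 times for Thy1. The nearest array was GFPpos replicate 1 for Myl10 (414.5) and Prkch (613), GFPneg replicate 1 for Thy1 (829.3), FxD replicate 2 for Sema4a (556) and FxE HA replicate 4 for Gldc (341). Car2 was the exception, with 7 of the 34 arrays above the lowest B6-M- signal. These were the 6 FxE HA arrays and FxE Ctrl replicate 4 (6562). Below B6-M-, neighbouring groups in the order of their means seldom stood apart. For Myl10 the GFPneg mean of 305 ± 49.6 (SD, n = 3) came next, and each following neighbour overlapped the one before. The GFPneg arrays (248 to 340) still lay above every U74Av2 array outside B6-M- and GFPpos, where the highest was 165, in Ctrl-Mhi. For Sema4a, groups 2 to 10 in order likewise overlapped their neighbours. For Thy1, B6-M- lay apart from GFPneg and GFPneg from GFPpos, and from there each group overlapped the next. Car2 had the clearest order, with FxE HA above B6-M-, then FxD, FxE Ctrl and FxE overlapping one another, then Cre-Mlo, GFPneg, Ctrl-Mhi and Cre-Mhi overlapping in turn, and GFPpos lowest and apart.

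None of the 6 genes passed the test in Cre-Mlo cells. Since Cre-Mlo results may have been known when the genes were listed, this count describes these 6 genes only. In limma's moderated test of log2 signals, adjusted over all 9977 probe sets, 0 of the 6 passed an adjusted p of 0.05 against Cre-Mhi cells, where 6.08% of all probe sets (607) passed. None passed at an unadjusted p of 0.05 either, against 17.4% of all probe sets, and the methods' t-test called 0 of them too. Myl10 read 52.7, 27, 16.2 and 30.1 in Cre-Mlo cells and 79.3, 66.2, 36.1 and 16.2 in Cre-Mhi cells. Both groups lie near the bottom of their arrays and overlap, as they did for each of the 6 genes, where 13.8% of all probe sets did not. The log2 difference was -0.54 (SE 0.48, 95% interval -1.58 to 0.51, adjusted p = 0.647). Prkch read 38.6, 27.4, 19.3 and 34.1 against 33.3, 20.9, 84.8 and 35.6 (log2 difference -0.39, interval -1.19 to 0.42, adjusted p = 0.675). Thy1, at 84, 138, 205.6 and 79.9 against 312, 79, 92.1 and 420.5, gave a log2 difference of -0.58 with a wide interval (-1.96 to 0.80, adjusted p = 0.714). Sema4a was 176 ± 44.5 against 257 ± 175 (log2 difference -0.37, interval -1.29 to 0.55, adjusted p = 0.728), with a single high Cre-Mhi array at 516. Gldc (109.2 ± 30.7 against 83.8 ± 36.7) and Car2 (1520 ± 335 against 1206 ± 363, SD, n = 4) had positive differences, of 0.45 and 0.36 in log2, with adjusted p = 0.632 and 0.515 and overlapping groups. The upper ends of the 6 intervals lie between 0.42 and 1.28 log2 units, so rises of that size are not excluded. As a description, B6-M- cells, whose level was treated as the basis of the choice, lay 2.53 (Car2) to 7.88 (Myl10) log2 units above Cre-Mhi cells.

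Set beside Ctrl-Mhi cells, whose arrays were treated as used in the choice of genes, Cre-Mlo cells were lower in Myl10 and Prkch without overlap. The fold was 2.97 for Myl10 (log2 difference -1.57, SE 0.48) and 1.92 for Prkch (-0.94, SE 0.37). Among all probe sets 8.21% were lower without overlap. Both genes sit close to the floor of 20 there, and at a floor of 100 the differences came to -0.18 and 0. For Gldc, Thy1, Sema4a and Car2 the log2 differences from Ctrl-Mhi ran from -0.41 to 0.38, with overlapping groups.

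In GFPpos cells Thy1 was lower and none of the 6 passed the test upward. Thy1 read 280, 218 and 381 in GFPpos cells against 829.3, 795 and 760 in GFPneg cells, so the groups did not overlap. The log2 difference was -1.47 (SE 0.23, 95% interval -2.05 to -0.90, limma adjusted p = 0.0462), the 1 call among the 6, where 2.59% of all probe sets passed. Non-overlap downward held for 15.1% of them. It is the opposite direction to B6-M-. The call is near its threshold: without any 1 of the 6 arrays the adjusted p was 0.0770 to 0.149, with log2 differences of -1.68 to -1.28. Summed T cell markers other than Thy1 (14 genes) read 6854 to 7377 in GFPneg and 8055 to 9875 in GFPpos arrays. Cd2, which B lineage cells also express, set that direction (mean 3381 in GFPneg and 6392 in GFPpos). The other 13 summed to 3519 to 3921 in GFPneg and 2506 to 3012 in GFPpos arrays, lower without overlap. Zap70, at a mean of 919 and 211, had the largest fall among them. It also read 2033 in FxD and 1821 in FxE cells. The T cell receptor parts Cd3d, Cd3e and Cd3g had means of 20 to 86.5 in both groups. Lat, a signaling adaptor, read 938 in GFPneg and 1066 in GFPpos cells. In turn, 10 stromal markers summed to 1910 to 2400 and 1568 to 1945. The sum of 5 osteoclast markers did not overlap, 5463 to 5699 in GFPneg and 2373 to 2814 in GFPpos arrays, with Acp5 passing (log2 difference -1.19, adjusted p = 0.0276). Acp5 made up most of that sum (mean 4937 in GFPneg and 2167 in GFPpos). The other 4 had means of 33.4 to 480 in these groups and did not pass. The part of these cells in the Thy1 signal was not tested.

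Car2 also did not overlap between the groups and was the lower in GFPpos cells, at 760, 540 and 747 against 1872, 1236 and 1350. Its log2 difference of -1.12 (SE 0.24, interval -1.71 to -0.52) missed the threshold (adjusted p = 0.0763). Prkch had the largest positive difference of the 6 (1.81 in log2, SE 0.69, interval 0.09 to 3.52, adjusted p = 0.220). Its GFPpos signals of 613, 233 and 115 spread widely and overlapped GFPneg, which read 54.9, 56.8 and 123. With all 37 arrays in one fit, where groups share an estimate of the spread, Prkch passed (adjusted p = 0.00951) and Thy1 did not (0.183). Gldc (199, 160 and 167 against 152, 121 and 53.6) and Sema4a (175, 214 and 333 against 136, 118 and 167) were higher without overlap, as 14.0% of all probe sets were, and neither passed (adjusted p = 0.339 and 0.227). Myl10 gave 414.5, 57.9 and 118 against 340, 326 and 248, with overlap (log2 difference -1.09, SE 0.73, adjusted p = 0.461). For each of these genes the GFPpos signals lay below all B6-M- signals.

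Car2 was the single gene of the 6 to rise with herbimycin A in FxE cells. At 24 h, FxE HA arrays read 13165, 11948, 11431 and 11792, against 2347 and 2822 in FxE Ctrl. At 48 h they read 10897 and 32747 against 2646 and 6562. Each treated array lies above each control array, as for 2.32% of all probe sets. In the fit with hours as a factor the log2 difference was 2.21 (SE 0.34, 95% interval 1.43 to 2.98, adjusted p = 0.00806), a 4.62-fold rise and the 18th largest of 9977, in a contrast where 3.37% of all probe sets passed and 1.18% passed upward. FxE HA replicate 6 stands apart at 32747. Without it the log2 difference was 1.95 (adjusted p = 0.0171). It was 2.23 within 24 h arrays (adjusted p = 0.0184) and 2.18 within the 4 arrays of 48 h, where it did not pass (0.590). The methods' t-test on linear signals did not call it. Whether each of these FxE arrays is a separate sort is not stated, and the tests took them as independent.

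Of markers of the cells best known for Car2, none rose with it. Of 11 erythroid markers, 0 passed in either direction, and their sum was 3562 to 12433 in FxE HA arrays and 5598 to 11314 in FxE Ctrl arrays. Of 5 osteoclast markers, Acp5, a phosphatase, fell (log2 difference -1.08, adjusted p = 0.0392), and their sum was lower without overlap, 4873 to 6207 against 8947 to 12377. Acp5 made up most of that sum (mean 9246 in FxE Ctrl and 4304 in FxE HA), and it also read 3017 in Ctrl-Mhi cells. The other 4 had means of 25.5 to 677 in these groups and did not pass. Of 16 myeloid markers 0 passed, with sums of 32881 to 140232 and 33754 to 132374. The sum of 14 T cell markers was higher without overlap, 39045 to 58435 against 24839 to 37465. Cd2, an adhesion receptor of T and B lineage cells, made up most of that sum and rose (mean 24721 in FxE Ctrl and 47837 in FxE HA, log2 difference 0.95, adjusted p = 0.0400), Zap70 fell (-2.45, adjusted p = 0.0172), and the T cell receptor parts Cd3d, Cd3e and Cd3g had means of 61.6 to 128 in both groups. B lineage marker sums were 91939 to 104684 in FxE HA and 104122 to 133966 in FxE Ctrl arrays. The part of other cells in the Car2 rise was not tested.

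The other 5 genes did not pass the test in FxE HA cells. Myl10 (19.1 to 120 in FxE HA, median 85.5, against 44.1 to 124), Prkch (10.7 to 64.6, median 36.6, against 20.3 to 64.5), Thy1 (36.7 to 185, median 97.8, against 68.9 to 152) and Sema4a (92.8 to 270, median 132, against 119 to 198) overlapped throughout. Their log2 differences lay between -0.08 and 0.07, with adjusted p from 0.938 to 0.998. Gldc had a positive difference (59.5 to 341, median 235, against 39.8, 62.9, 133 and 304), of 1.11 in log2, but with an interval of -0.22 to 2.44 and an adjusted p of 0.431. The highest FxE HA signals of Gldc (341) and Myl10 (120) lay below the lowest of B6-M- cells, whereas the Car2 geometric mean was 2.08-fold above that of B6-M-.

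**Figure D2:**
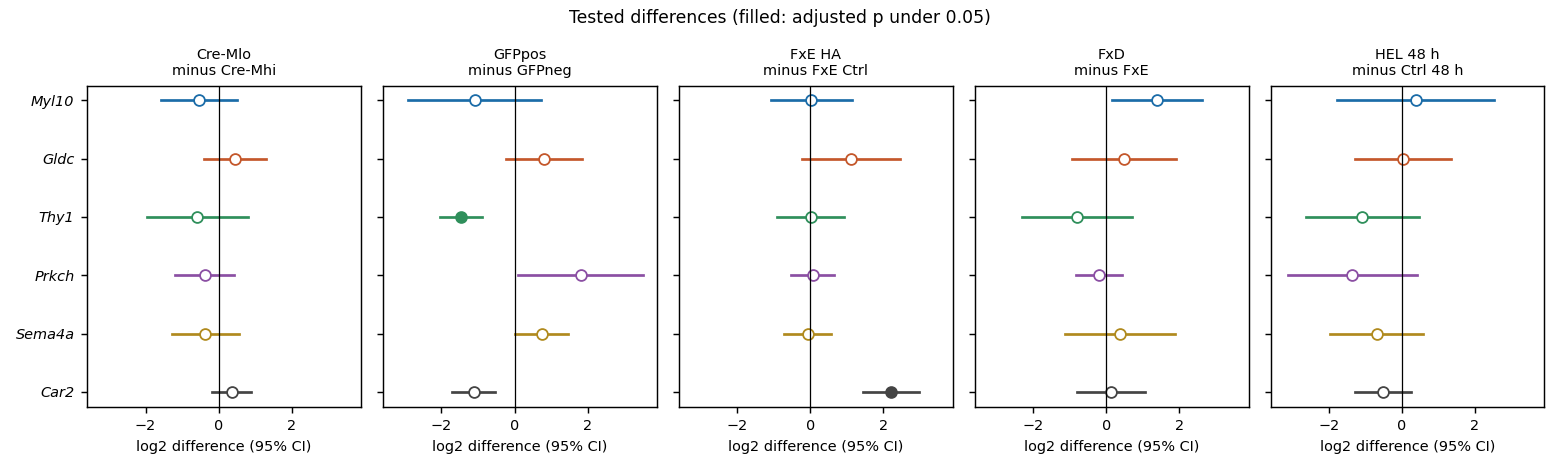
Log2 differences (points) with 95% intervals (lines) for the 6 genes in the 5 tested comparisons, filled where limma's adjusted p was under 0.05. Thy1 in GFPpos (-1.47) and Car2 in FxE HA cells (2.21) are the filled points, and all 6 are open in Cre-Mlo cells.

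The Car2 response to herbimycin A differed between the 2 cell preparations. In a fit of 24 arrays that tests one difference against another, the FxE HA effect exceeded the GFPpos effect by 3.32 in log2 (SE 0.48, adjusted p = 0.00131), where 2.16% of all probe sets passed. It exceeded the Cre-Mlo effect by 1.85 (SE 0.44, adjusted p = 0.0286), where 2.43% passed. The second of these is less firm: leaving out single arrays gave 1.45 to 2.24 with adjusted p from 0.00365 to 0.0813, and median centring gave 0.0873. The preparations differ in mouse line, receptor, Bcl-2 transgene, prior IL-7 culture, time and sort, and these cannot be told apart. Prkch had a GFPpos effect 2.19 above its Cre-Mlo effect (SE 0.71), which did not pass (adjusted p = 0.263, with 0.371% of all probe sets passing). No other difference of effects passed for the 6 genes.

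Freshly sorted pre-B and immature B cells did not differ in the 6 genes by the test: 0 passed in FxD against FxE, where 3.00% of all probe sets passed. The unadjusted p was under 0.05 for 1 of them, Myl10, against 14.2% of all probe sets, and the methods' t-test after adjustment called none. Myl10 read 143, 50.7 and 69.8 in FxD and 49.9, 23.4 and 23.7 in FxE cells, higher without overlap (log2 difference 1.40, SE 0.50, interval 0.17 to 2.62, adjusted p = 0.281). Non-overlap upward held for 10.6% of all probe sets. Car2, at 2497, 4005 and 3669 in FxD and 3078, 4591 and 2018 in FxE cells, lay above all 18 arrays of Ctrl-Mhi, Cre-Mhi, Cre-Mlo, GFPneg and GFPpos cells (540 to 1945). The erythroid sums given above are high in the same arrays, and their part in the Car2 level was not tested. Sema4a spread widely in both (160 to 556 and 171 to 499). The RNA of these 2 groups was amplified, unlike that stated for the others, so no test was made across.

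Of the 6 genes, 4 were higher in IgM-high cells expanded in IL-7 than in Ctrl 48 h cells. In HEL-Mhi cells Myl10 read 1647, 1228 and 1608, against 26.7, 135 and 87.5 in Ctrl 48 h cells, which had been without IL-7 for 48 h (21.8-fold). Thy1 read 2068, 2650 and 3121 against 278, 465 and 237 (8.23-fold). Prkch read 417, 441 and 407 against 63.7, 172 and 232 (3.09-fold), and Sema4a 1523, 1550 and 1443 against 330, 582 and 813 (2.80-fold). The Prkch signals lay below the median signals of the HEL-Mhi arrays, 512 to 540. These 4 did not overlap. Of all shared probe sets, 6.61% were higher and 35.0% lower without overlap, so the groups also differ in scale. Gldc (77.7, 93.3 and 326 against 123, 449 and 275) and Car2 (817, 652 and 885 against 652, 713 and 826) overlapped. This contrast was drawn up after its values were seen and was not tested, and the 2 groups differ in transgene, sort and IL-7, with a target and mask stated for HEL-Mhi alone.

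HEL, the antigen of the transgenic receptor, gave no call for the 6 genes. In HEL 48 h against Ctrl 48 h cells 0 of 6 passed, and 0.230% of 12588 probe sets did. None had an unadjusted p under 0.05, against 11.6% of all probe sets. Signals overlapped for each gene, where 20.5% of all probe sets did not, and log2 differences ran from -1.36 (Prkch, SE 0.72) to 0.37 (Myl10, SE 0.89). With the scan day as a block, none passed, and adjusted p values ran from 0.538 to 0.991. Within the first of the 2 scan days that held both groups, log2 differences ran from -1.14 to 0.64 with adjusted p from 0.734 to 0.957, and within the second, with no test, from -2.24 to 0.50.

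HEL-Mlo arrays, on another scale, were set beside the others by the percentile of each probe set among the 9977 shared ones of its array. This measure was chosen after the data were seen. Myl10 stood at 93.7 to 96.4 in HEL-Mlo, 94.3 to 97.5 in B6-M- and 66.6 to 73.2 in HEL-Mhi arrays. It was at most 48.6 in all other groups. Car2 stood at 92.0 to 94.5 in HEL-Mlo and 91.7 to 94.8 in B6-M- arrays, between 39.7 and 60.3 in the other U74A groups, and at 96.1 to 98.8 in FxE HA. Thy1 (70.2 to 87.0 in HEL-Mlo, 67.7 to 80.3 in B6-M-) and Prkch (62.9 to 74.3, 66.0 to 71.0) also overlapped between HEL-Mlo and B6-M- arrays. In HEL-Mhi arrays Thy1 stood at 77.4 to 85.0 and Prkch at 45.8 to 46.4. Sema4a (77.1 to 85.1, 88.4 to 91.1) and Gldc (54.3 to 68.6, 85.3 to 92.0) ranked lower in HEL-Mlo arrays. Since how HEL-Mlo signals were made is not stated, these ranks were not tested.

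**Figure D3:**
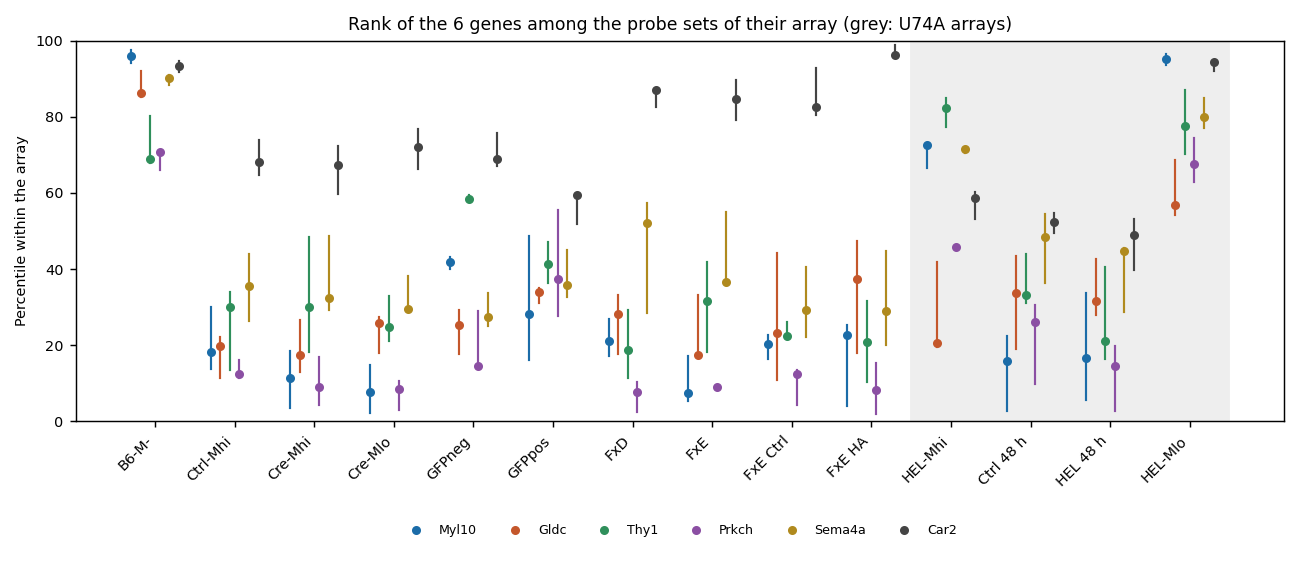
Percentile of each gene's probe set among the 9977 shared probe sets of its array (points are group medians, lines run from the lowest to the highest array), with U74A groups on grey; it is read along 1 gene, not between genes. Myl10 is above 93 in B6-M- and HEL-Mlo arrays, and Car2 rises to 96.1 to 98.8 in FxE HA.

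Genes of the same families and pathways, from lists made for this comparison, were also counted. Of all probe sets, 6.08% passed in Cre-Mlo, 2.59% in GFPpos and 3.37% in FxE HA cells, so a count of 0 or 1 in a list of this size is near that share. Of 13 other myosin light chains, heavy chains and their kinase, 0 rose and 1 fell in Cre-Mlo against Cre-Mhi cells, and 0 passed in GFPpos or FxE HA cells. Of 10 other protein kinase C, D and N genes, 1 fell in Cre-Mlo (Prkca, log2 difference -0.97, adjusted p = 0.00206), 0 passed in GFPpos and 1 fell in FxE HA cells (Prkcd, -0.98, adjusted p = 0.0234). Of 21 other semaphorins, plexins and their partners, Cd72, a B cell receptor for the semaphorin CD100, fell in Cre-Mlo (-0.87, adjusted p = 4.71e-04) and in FxE HA cells (-3.77, adjusted p = 1.44e-05), and 0 rose in the 3 comparisons. Of 9 enzymes of glycine and one-carbon metabolism 0 rose, and Psat1, of serine synthesis, fell in FxE HA cells (-0.78, adjusted p = 0.0494). The 6 other carbonic anhydrases measured did not pass in any of the 3, and Car1, the red cell form, read 91.8 in FxE Ctrl and 88.8 in FxE HA cells. Median log2 differences of these 5 lists lay between -0.32 and 0.27, beside medians of -0.03 to 0.07 over all probe sets. Of 13 other GPI-anchored proteins, Bst1 rose (0.88, adjusted p = 0.00206) and Cd52 fell (-0.77, adjusted p = 0.0493) in Cre-Mlo cells, Folr1 fell in GFPpos cells, and Cd52 and Cd55 fell in FxE HA cells.

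Other genes of early B cells were counted in the same comparisons. Of 18 pro-B and pre-B genes, 11 rose and 0 fell in Cre-Mlo cells, where 3.14% of all probe sets rose and 2.95% fell, with a median log2 difference of 0.97, beside -0.03 over all probe sets. The 3 with the smallest adjusted p were Rag1 (log2 difference 3.03, adjusted p = 1.99e-05) and Rag2 (2.55, adjusted p = 2.55e-04), the 2 parts of the recombinase, and the transcription factor Lef1 (1.36, adjusted p = 7.46e-05). In GFPpos cells 5 rose and in FxE HA cells 4 rose, with 0 falling in either, beside 1.37% and 1.18% of all probe sets rising. Of 12 genes known as IL-7 or STAT5 targets, 5 rose and 3 fell in Cre-Mlo cells. Those with the smallest adjusted p went both ways: Ccnd2, a cyclin, fell (-2.06, adjusted p = 1.93e-04), while Pim1, a kinase (1.19, adjusted p = 0.00447), and Socs2, a feedback inhibitor of cytokine receptors (1.24, adjusted p = 0.00591), rose. The counts were 3 up and 0 down in GFPpos and 2 up and 1 down in FxE HA cells. Of 12 genes of mature B cells 9 fell in Cre-Mlo cells, 1 in GFPpos and 10 in FxE HA cells, and 0 rose. Of all probe sets, 2.95%, 1.21% and 2.19% fell in these 3 comparisons. The lists were made with earlier results of these data known.

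The 6 genes belong to a wider set of 168 probe sets at least 4-fold higher in B6-M- than in Ctrl-Mhi cells without overlap. Of the 168, 26 (15.5%) were called higher in Cre-Mlo against Cre-Mhi cells, beside 3.14% of all probe sets, and 5 (2.98%) were called lower, beside 2.95%. In GFPpos cells 17 (10.1%) were higher and 9 lower, beside 1.37% and 1.21% of all probe sets. In FxE HA cells 12 (7.14%), Car2 among them, were higher and 1 lower, beside 1.18% and 2.19%. In total 37 of the 168 (22.0%) rose in at least 1 of the 3, and 3 rose in all of them. Named after their values were seen, these were Rag1, Dgcr6 and Sgk1, a kinase. The set was picked for its values, so the shares are given as a description.

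**Figure D4:**
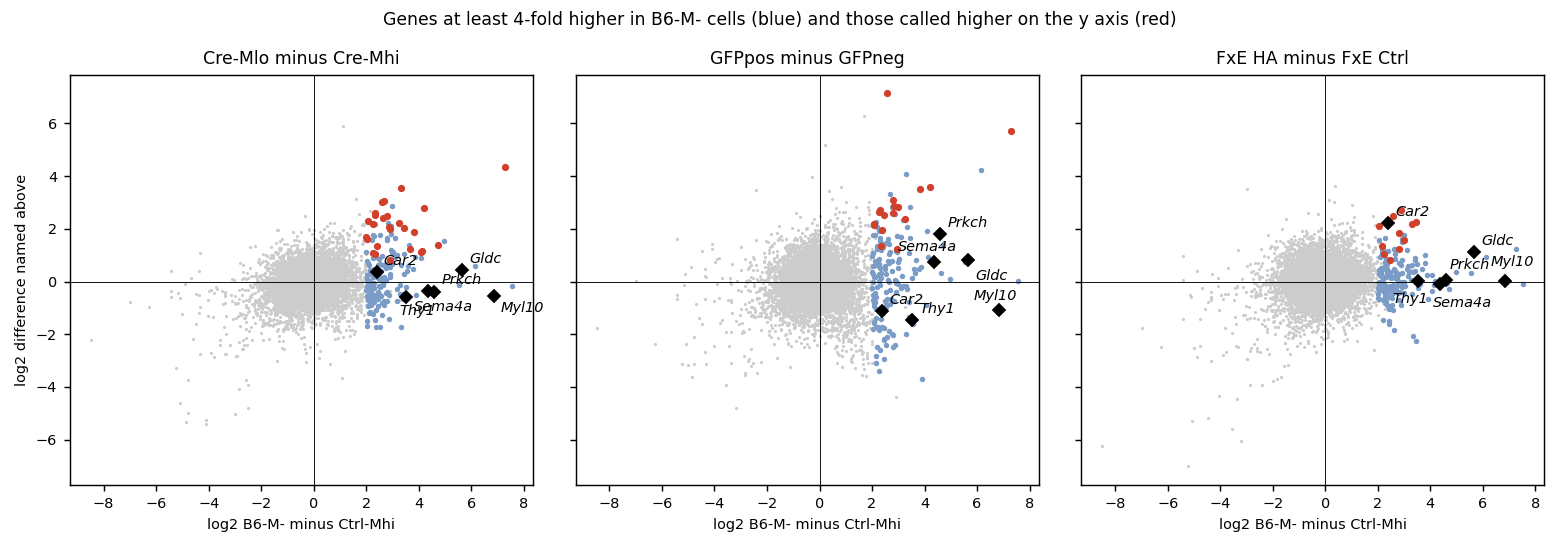
Log2 difference of B6-M- minus Ctrl-Mhi cells (x axis) against that of Cre-Mlo minus Cre-Mhi, GFPpos minus GFPneg and FxE HA minus FxE Ctrl (y axes) for 9977 probe sets (grey), with the 168 that were at least 4-fold higher in B6-M- in blue, those of them called higher on the y axis in red and the 6 genes as diamonds. Myl10 and Gldc lie far right and between -1.09 and 1.11 on the y axes, and Car2 sits among the red points in FxE HA cells alone.

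Across the 10 U74Av2 group means of log2 signal, Myl10, Gldc, Thy1, Prkch and Sema4a followed one another (Pearson r 0.64 to 0.92). Without B6-M-, over 9 means, the same pairs had r of -0.30 to 0.69. Car2 did not (r -0.07 to 0.46). Among 5299 probe sets with 1 gene and a group mean of at least 500, the genes most like Myl10 were Mtor (r = 0.94), Ncl (0.94) and Pa2g4 (0.93). For Gldc they were Trgv4 (0.98), Mtor (0.94) and Ncl (0.93), for Thy1 Tkt (0.96), Ndufb6 (0.95) and Ldha (0.95), and for Sema4a Efhd1 (0.96), Csf1r (0.94) and Mpzl2 (0.93). Prkch was nearest to Cep250 (0.95), Csf2rb (0.93) and a dimmer probe set of Dntt, the terminal transferase (0.93). That probe set did not pass in Cre-Mlo against Cre-Mhi cells (log2 difference 0.59, limma's adjusted p = 0.711). The brighter Dntt probe set rose there (4.34, adjusted p = 4.02e-04), unlike Prkch. Car2 was nearest to Dnajc2 (0.93), Pdap1 (0.93) and Eif3b (0.91). These are descriptions over 10 points that share scaling. B6-M-, treated as the basis of the choice of genes, is among the points, and the nearest genes were not sought without it.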

How the data were processed

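RNA of sorted bone marrow B lineage cells was measured on Affymetrix U74Av2 (37 arrays) and U74A (12 arrays) arrays. The authors computed hybridization intensities per probe set with Microarray Suite 5.0, applied a mask, scaled arrays to 1500 units, and deposited them as linear values. For HEL 48 h and Ctrl 48 h the labels name MAS5 without target or mask, and for HEL-Mlo no scaling is stated. On U74Av2 9977 probe sets were given values. On U74A there were 12588 and 66 controls, and 2677 rows are blank for HEL-Mhi. The tables were scaled separately, so tests stayed within one and levels across them stand side by side only. The annotation gave 8724 probe sets on U74Av2 1 gene, 346 several and 907 none. On U74A these were 10276, 363 and 1949.

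Detection calls were not used here. Signals under 20 were set to 20, and the logarithms to base 2 entered linear models in limma 3.58.1 under R 4.3.3 (lmFit and eBayes, two-sided, Benjamini-Hochberg over all probe sets, adjusted p under 0.05). Ctrl-Mhi, Cre-Mhi and Cre-Mlo shared a fit, FxE HA against FxE Ctrl had hours (24 or 48, by replicate number from a figure legend, where labels say 1 to 2 d) as a factor, and each other comparison had its own. Differences of effects were contrasts in a fit of 24 arrays. Fits were tested on simulated data. Alternatives were quantile and median scaling, a floor of 100, a filter at a mean of 200, the methods' t-test (p under 0.01, or 0.05 for FxD, 2-fold, difference over 200), a joint fit, a replicate block, scan days, hours, and leaving out each array. Groups come from the labels. The methods state 4 independent sorts each for Ctrl-Mhi, Cre-Mhi and Cre-Mlo, and 2 or 3 for all other samples. FxE Ctrl (4 arrays) and FxE HA (6 arrays) exceed that, so it is not known whether each of their arrays is a separate sort. The tests took all arrays as independent. The number of arrays limits precision.

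The genes and lists were chosen with earlier results of these data known. Named genes are the 6, per list up to 3 with the smallest adjusted p in Cre-Mlo against Cre-Mhi cells, and per gene the 3 with the highest Pearson r over group means. Acp5, Cd2, Zap70, Lat, Prkcd, Psat1, Car1, Folr1 and Cd55 fall outside this rule and were named after their values were seen. For genes measured more than once, the brightest probe set on average stands for the gene. Lists were markers of T, NK, erythroid, myeloid, mast, stromal, osteoclast and B lineage cells, pro-B and pre-B genes, mature B cell genes, IL-7 and STAT5 targets, and the families of the 6 genes.

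Same-numbered arrays were not taken as pairs in the main fits. They deviated from their group means with correlations of 0.09 to 0.32 in Cre-Mlo and Cre-Mhi (over probe sets averaging 200 or more). Correlations were lower, or negative, in at least 1 pair of each other comparison. For Cre-Mlo against Cre-Mhi, where pairing is the more likely, the replicate block given below is the paired alternative, and it called none of the genes.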

Additional observations from a re-analysis of the deposited data

Results flagged for a closer look

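Car2 differed between contrasts. Its FxE HA effect exceeded its GFPpos effect by 3.32 in log2 and its Cre-Mlo effect by 1.85, each a tested difference of differences with limma's adjusted p under 0.05.

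Among 30 sets of 4 to 10 arrays of 1 group examined for a single array far from the others on the log2 scale, 3 had one, where chance gives about 1 in 20. Car2 in FxE HA replicate 6 was the highest of 6 arrays at 32747. Myl10 in FxE HA replicate 2 was the lowest of 6 at 19.1, below the floor of 20. Gldc in Ctrl-Mhi replicate 1 was the lowest of 4 at 46.3.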

How the results depend on the processing

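Precision rests on 3 to 6 arrays a group, and 4 of the genes read under 100 in several groups, near signals of probe sets without a target, so small changes at that level were not detectable. Sema4a means of 140 in GFPneg and 241 in GFPpos cells also lay below the highest yeast signal, 253 on the 48 h arrays. In Cre-Mlo against Cre-Mhi, FxD against FxE and HEL 48 h against Ctrl 48 h cells the count of the 6 genes called stayed 0 under each alternative run, the replicate block (0) included. In GFPpos against GFPneg cells 1 gene was called, Thy1. The count was 0 after quantile scaling (Thy1 adjusted p = 0.0580), median centring (0.0661), the methods' t-test with Benjamini-Hochberg adjustment and the replicate block (0.187), 0 to 0 without single arrays, and 2 both in the joint fit (Prkch and Car2) and with the filter on the mean (Thy1 and Car2), where 3 of the 6 genes were tested. In FxE HA against FxE Ctrl cells 1 gene was called, Car2. The count was 0 with the methods' t-test by its 3 criteria or after adjustment, with the replicate block (adjusted p = 0.340) and within 48 h arrays alone, and 1 without each single array. For the difference of the FxE HA and Cre-Mlo effects the count fell from 1 to 0 with median centring, and leaving out single arrays gave 0 to 1, with 0 without Cre-Mhi replicates 3 or 4 (adjusted p = 0.0679 and 0.0642), Cre-Mlo replicates 1, 2 or 4 (0.0698, 0.0547 and 0.0546), FxE Ctrl replicates 1, 2 or 3 (0.0664, 0.0534 and 0.0813) or FxE HA replicate 6 (0.0567). The differences between FxE HA and GFPpos (1) and between GFPpos and Cre-Mlo (0) kept their counts. The cause of these changes was not tested. No called difference of the 6 genes changed sign.

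Counts over all probe sets moved more: from 607 to 200 with the replicate block in Cre-Mlo against Cre-Mhi (217 and 293 by the methods' t-test without and with adjustment), from 258 to between 0 (block) and 802 (joint fit) in GFPpos, from 336 to between 0 (block, and 48 h alone) and 891 (joint fit) in FxE HA, from 299 to between 0 (block) and 1025 (joint fit) in FxD against FxE, and from 29 to between 0 and 100 in HEL 48 h. The floor of 100 raised the differences of effects from 37, 216 and 242 to 95, 378 and 414. Median centring moved the share of higher calls in FxE HA minus GFPpos effects from 40.7% to 25.7%. Cre-Mlo and Cre-Mhi arrays correlated best with their own number in 4 of 4 over probe sets averaging 200 or more and in 3 of 4 over all probe sets, a hint from the data only.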
